A study of Rattus norvegicus with 16 samples.

Results

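The enzymes that break tryptophan down along the kynurenine pathway were followed in rat hippocampus after traumatic brain injury (TBI), because one of the drugs tested, JM6, acts on a member of that pathway, kynurenine 3-monooxygenase (Kmo). The 9 genes were Kmo, Kynu, Ido1, Tdo2, Haao, Qprt, Aadat, Acmsd and Afmid. They were taken by exact gene name from the 26583 gene names of a single-colour Agilent rat array, and each had 1 probe. The rule that picks their probes uses no measured value, but the 9 genes were named with earlier results of these data known.

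Adult male Sprague-Dawley rats, 1 rat per array, made up 6 groups, and 16 arrays of whole hippocampus were analysed. Naïve rats (3 arrays) had neither surgery nor injury, Sham rats (2 arrays) were anaesthetised and prepared for injury without receiving it, and TBI rats (3 arrays) received severe fluid percussion injury. TBI+JM6 (3 arrays) and TBI+PMI (3 arrays; PMI is the compound PMI-006) were injured and then dosed by oral gavage. TBI+E33 (2 arrays) was injured and given, under the skin, a drug that the labels call E33. The third drug in the study's methods is 17β-estradiol, given into the peritoneum, and E33 is taken to be that group without the labels saying so. Tissue was taken 24 h after injury. No vehicle is named for the TBI group, which was the untreated injured control, and only 2 of the 3 rats that the methods give were analysed here for Sham and for TBI+E33.

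Most tryptophan that is not built into protein is oxidised through this pathway. Indoleamine 2,3-dioxygenase (Ido1), induced in immune cells by interferons, and tryptophan 2,3-dioxygenase (Tdo2), abundant in liver, open the tryptophan ring, and kynurenine formamidase (Afmid) releases kynurenine. Kynurenine then has competing fates. Kmo, in brain chiefly an enzyme of microglia and other myeloid cells, hydroxylates it to 3-hydroxykynurenine. Kynureninase (Kynu) and 3-hydroxyanthranilate dioxygenase (Haao) carry that product on towards quinolinic acid, an agonist of NMDA receptors, which Qprt converts on the way to NAD. Acmsd diverts the precursor of quinolinic acid. The aminotransferase Aadat (kynurenine aminotransferase II) instead converts kynurenine to kynurenic acid, which blocks NMDA receptors. JM6 was studied as a compound that lowers Kmo activity and raises kynurenic acid. The study states that JM6 itself is kept out by the blood-brain barrier. It proposes that Kmo is blocked outside the brain and that kynurenine building up in blood is then carried in. The arrays measured messenger RNA of hippocampus, not enzyme activity or metabolites.

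The 5 members that gave a signal clearly over background on at least 1 array were read by these 60-base probes, printed 5′ to 3′ as the array design gives them, since every value below rests on 1 such probe for each gene. No part is marked in capitals.

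Kmo: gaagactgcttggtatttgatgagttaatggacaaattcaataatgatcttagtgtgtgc
Ido1: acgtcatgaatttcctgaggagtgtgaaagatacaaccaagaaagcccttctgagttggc
Haao: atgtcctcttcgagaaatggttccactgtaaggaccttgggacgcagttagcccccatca
Qprt: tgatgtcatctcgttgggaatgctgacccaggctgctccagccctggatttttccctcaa
Aadat: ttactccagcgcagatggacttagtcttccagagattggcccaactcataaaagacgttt

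On build rn4 of the array's annotation, the Kmo probe lay on the plus strand at chr13:91388661-91390462, a span of 1802 bases for a 60-base probe, so its match in the genome is split. The Aadat probe likewise covered a span of 1056 bases on the minus strand at chr16:32845430-32846485. The probes of Ido1 (plus strand, chr16:71878309-71878368), Haao (minus strand, chr6:7200305-7200364) and Qprt (minus strand, chr1:186358812-186358871) each matched 1 unbroken stretch. Each probe was designed on a RefSeq transcript of its gene. The G and C content rose from 35.0% in the Kmo probe to 53.3% in the Qprt probe. Levels of different genes are therefore not compared with each other, since probes differ in brightness for the same amount of RNA.

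Signals are given as the log2 of a probe's intensity over its array's 75th percentile, taken over the probes well above background on that array, so that 0 is a bright probe, and the dimmest probe above background on an array lay between -6.51 and -5.71. The arrays were scanned in 2 sessions: session 1 held the 8 Naïve, Sham and TBI arrays, and session 2 held the 8 arrays of the drug groups. Each array of session 1 had 16274 to 18239 probes well above background and each array of session 2 had 20256 to 24979. Drug and session therefore cannot be told apart wherever a drug group is set against TBI. Both Sham arrays were on slide 1 and all 3 TBI arrays on slide 2, so slide and group cannot be told apart in TBI vs. Sham. The same holds for TBI+PMI (slide 3) vs. TBI+E33 (slide 4). Over all tested probes, the median difference from TBI was 0.99 with JM6, 0.79 with PMI-006 and 1.08 with E33 on the log2 scale. Quantile normalization, which forces all arrays to one distribution, brought these medians to -0.0024, -0.015 and -0.0033. The labels name 2 alternative RNA amplification kits without saying which array had which. Of 5 hippocampal neuron markers, 4 or 5 were above background on every array, and Neurod6, Wfs1, Zbtb20 and C1ql2 were above background on all 16.

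The pathway was detected in part. Qprt and Aadat were well above background on 16 of 16 arrays, Kmo on 8, Ido1 on 6 and Haao on 6, while Tdo2, Afmid, Kynu and Acmsd were so on none. These last 4 lay between -8.85 and -6.14 (log2 signal) on all arrays. For Tdo2, which the array carries in 10 copies, 1 of 157 usable spots was above background. The 4 undetected genes did not pass the filter, which asked for a signal above background on all arrays of at least 1 group, and so were not tested. Of the 5 that passed, Kmo passed only through TBI+JM6 and TBI+E33, and Ido1 and Haao only through TBI+E33, which means that these 3 had to be brighter in session 2 in order to be tested at all.

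**Figure D1:**
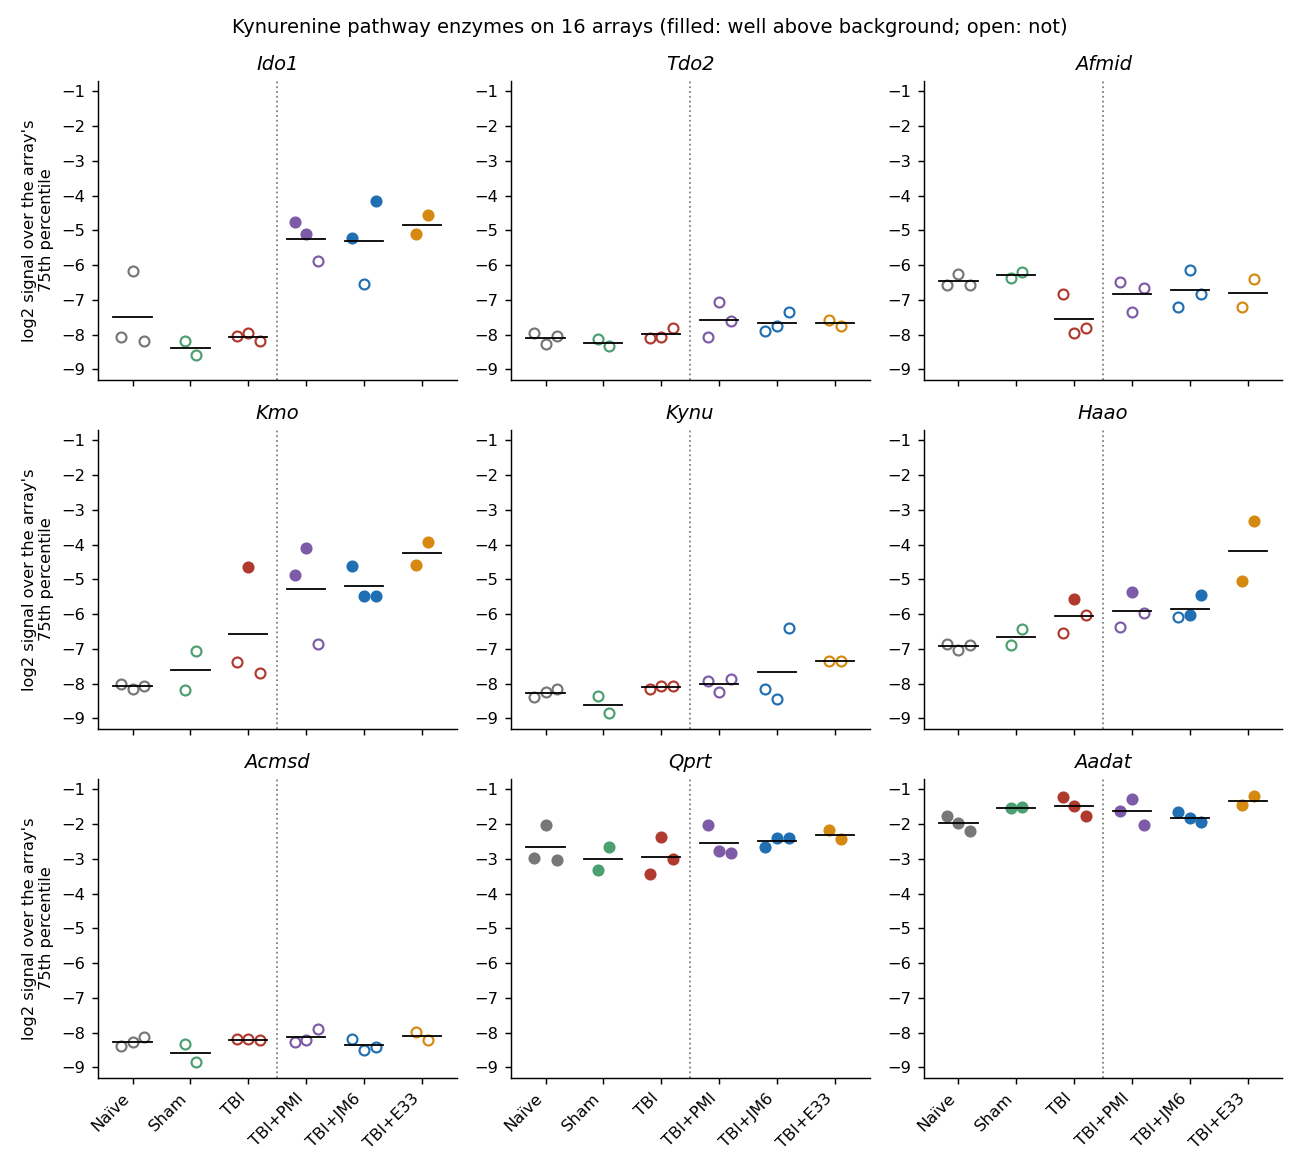
Log2 signal of each of the 9 enzymes (y axis, over the 75th percentile of the array's detected probes) on 16 arrays by group (x axis), ordered from the opening of the tryptophan ring to the end of the pathway. Filled points were well above background, open points were not, black lines are group means and the dotted line separates the scanning sessions: Qprt and Aadat are filled throughout, and Ido1 is filled only to the right of the line.

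Kmo, the enzyme on which JM6 acts, was not above background in any uninjured rat. Its log2 signals were -8.02, -8.15 and -8.07 in the 3 Naïve rats and -8.17 and -7.07 in the 2 Sham rats. The 3 TBI rats gave -7.38, -4.63 and -7.71, and only the second was above background. The TBI group thus held 1 rat with a Kmo signal as high as in the drug groups and 2 rats near the uninjured level. The 3 TBI+PMI rats gave -4.88, -4.10 and -6.87, with the first 2 above background. The 3 TBI+JM6 rats gave -4.62, -5.49 and -5.49, and the 2 TBI+E33 rats gave -4.59 and -3.91, all above background. On the linear scale the TBI+JM6 intensities ran from 30.8 to 67.7, against 4.61 to 5.82 in Naïve rats, in arbitrary scanner units. Ordered by their means, the groups ran from Naïve (-8.08 ± 0.07, SD, n = 3) through Sham (-7.62 ± 0.78, SD, n = 2), TBI (-6.57 ± 1.69, SD, n = 3), TBI+PMI (-5.28 ± 1.43, SD, n = 3) and TBI+JM6 (-5.20 ± 0.50, SD, n = 3) to TBI+E33 (-4.25 ± 0.48, SD, n = 2). No neighbouring pair that shared a session differed past the test.

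Ido1, the inducible enzyme that starts the pathway, was above background only in the drug groups. All 8 arrays of session 1 read between -8.58 and -6.18. Within that range the TBI rats, at -8.05, -7.95 and -8.18, overlapped the Naïve rats, at -8.08, -6.18 and -8.18. The TBI rats lay above the Sham rats, at -8.19 and -8.58, but the nearest values were almost equal. None of these arrays was above background, so their order is no result. The TBI+PMI rats gave -4.74, -5.11 and -5.88, the TBI+JM6 rats -5.22, -6.54 and -4.16, and the TBI+E33 rats -5.12 and -4.55. One rat of TBI+PMI (-5.88) and 1 of TBI+JM6 (-6.54) were not above background. The highest session 1 value, in a Naïve rat, was above the lowest of TBI+JM6, and otherwise the sessions did not overlap.

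Haao, which makes the direct precursor of quinolinic acid, was above background on 1 TBI array, 1 TBI+PMI array, 2 TBI+JM6 arrays and both TBI+E33 arrays. The Naïve rats gave -6.85, -7.02 and -6.89 (log2 signal), the Sham rats -6.88 and -6.44, and the TBI rats -6.53, -5.58 and -6.03. The TBI+PMI rats gave -6.38, -5.38 and -5.98, and the TBI+JM6 rats gave -6.08, -6.01 and -5.44. The ranges of TBI, TBI+PMI and TBI+JM6 overlapped. The 2 TBI+E33 rats, at -5.05 and -3.33, were the highest of all 16 and far apart from each other.

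Of the detected members, Qprt and Aadat, which were measured everywhere, had the closest group means. Qprt, which consumes quinolinic acid, gave group means between -3.00 (Sham) and -2.30 (TBI+E33), and its single values ran from -3.43 in a TBI rat to -2.01 in a TBI+PMI rat. In Qprt the spread inside a group was as large as the step from group to group: a Naïve rat at -2.02 was higher than every TBI+JM6 rat (-2.67, -2.41 and -2.40). That Naïve rat and the TBI+PMI rat at -2.01 also had 2 of the 3 high sums of 5 choroid plexus markers, 76.6 and 150 in multiples of the array's 75th percentile, against 0.192 to 7.60 on 13 other arrays. The remaining high one, a Sham rat at 121, had a Qprt signal of -3.33. The part of choroid plexus tissue in the Qprt signal was not tested. Aadat, on the branch to kynurenic acid, gave -1.77, -1.96 and -2.21 in Naïve rats, -1.54 and -1.50 in Sham rats and -1.23, -1.47 and -1.77 in TBI rats. It gave -1.61, -1.26 and -2.03 in TBI+PMI rats, -1.66, -1.83 and -1.94 in TBI+JM6 rats and -1.44 and -1.20 in TBI+E33 rats. Aadat is also the detected member with the most repeat readings, since its probe was printed 10 times on each array and the usable copies varied by 3.96% to 10.8% (coefficient of variation). The range of the TBI rats overlapped that of each other group. The 6 astrocyte markers, read because astrocytes are known to make kynurenic acid, were above background on all arrays, and their summed signal was 22.9 to 27.5 in session 1 and 30.4 to 44.4 for TBI+PMI. For TBI+JM6 it was 48.9 to 52.8, and for TBI+E33 50.3 to 52.2. After quantile normalization the astrocyte sums were 54.8 to 72.0 in session 1, 55.2 to 105 for TBI+PMI, 84.2 to 101 for TBI+JM6 and 91.0 to 94.9 for TBI+E33. A higher sum does not stand for each of the 6 markers. Their median difference from TBI was 0.38 with JM6, 0.23 with PMI-006 and 0.56 with E33. After quantile normalization that median was -0.34, -0.38 and -0.14. The part of astrocytes in the Aadat signal was not tested.

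The first question was whether injury or surgery changed the pathway, and within session 1 no member passed the test. By limma with Benjamini-Hochberg adjustment over all tested probes, 0 of 5 members were called in TBI vs. Sham (unadjusted p under 0.05 in 0), 0 of 5 in TBI vs. Naïve (unadjusted in 2) and 0 of 5 in Sham vs. Naïve (unadjusted in 0). Of all tested probes, 9.38%, 4.71% and 8.07% were called in these 3 comparisons. The methods' t-test passed Haao in TBI vs. Naïve before adjustment and no member in the other comparisons of session 1. Kmo had a limma adjusted p of 0.292 in TBI vs. Naïve and 0.474 in TBI vs. Sham. No uninjured array measured it above background, and a bound against the dimmest detectable signal left no fold to give, since 2 of the 3 TBI rats were not above background either. The smallest adjusted p-values of session 1 belonged to Aadat and Haao in TBI vs. Naïve. Aadat gave 0.49 ± 0.21 (SE, limma adjusted p = 0.205), with overlapping groups. Aadat in Sham vs. Naïve gave 0.46 ± 0.24 (SE, adjusted p = 0.277), with every Sham rat above every Naïve rat. Haao in TBI vs. Naïve had an adjusted p of 0.234, again with no fold to give, since 0 of 3 Naïve and 1 of 3 TBI arrays measured it above background. Haao in TBI vs. Sham had an adjusted p of 0.416 and likewise no fold to give, with 0 of 2 Sham arrays above background. Within the slide that held all 3 TBI arrays and 1 Naïve array, the Aadat difference was 0.72.

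Kmo is carried in brain by microglia and by myeloid cells of the blood, so markers of microglia and of blood leukocytes in general were read on the same arrays. All 7 microglia markers were above background on every array, and their summed signal was 5.08 to 5.64 in the Naïve rats. Sham rats had a microglia sum of 5.69 to 8.73, and TBI rats had 6.95 to 9.32. The sum does not stand for each marker. In TBI vs. Sham, 2 of the 7 were called higher and 2 lower, beside 2.92% and 6.46% of all tested probes. Quantile normalization gave the same 2 counts of markers. The microglia sum then ran from 6.96 to 9.88 for TBI+PMI, from 9.73 to 11.5 for TBI+JM6 and from 9.70 to 11.0 for TBI+E33. After quantile normalization the drug groups were not above TBI: the microglia sums were 18.9 to 25.3 for TBI, 12.3 to 18.4 for TBI+PMI, 15.02 to 21.0 for TBI+JM6 and 17.1 to 17.9 for TBI+E33. The blood leukocyte sum used 5 of 7 markers, leaving out S100a8 and Lyz2, each of which had a rejected spot on 1 array. The 5 were Ptprc, S100a9, Ccr2, Cd3e and Cd8a, so the sum is not one of myeloid cells alone. Naïve rats had a leukocyte sum of 0.112 to 0.131, and Sham rats had 0.287 to 0.410. The 3 TBI rats had 0.523, 2.28 and 1.42, and the 3 TBI+PMI rats 0.960, 2.30 and 1.56. The leukocyte sum reached 2.16, 3.13 and 2.11 in the TBI+JM6 rats, and 2.14 and 3.07 in the TBI+E33 rats. After quantile normalization the leukocyte sums were 1.53, 5.65 and 4.28 in the TBI rats, and the drug groups lay inside that range, at 1.59 to 3.87 (TBI+PMI), 2.996 to 5.47 (TBI+JM6) and 3.55 to 4.75 (TBI+E33). Of the 7 leukocyte markers, 3 were above background on each Naïve array and 6 or 7 on each drug array. The second TBI rat, with the Kmo signal of -4.63, had the highest leukocyte sum of session 1 (2.28). The third TBI rat had a leukocyte sum of 1.42 and a microglia sum of 9.32 with Kmo not above background. The part of these cells in the Kmo signal was not tested, and in whole tissue more cells of a type cannot be told apart from more RNA per cell.

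**Figure D2:**
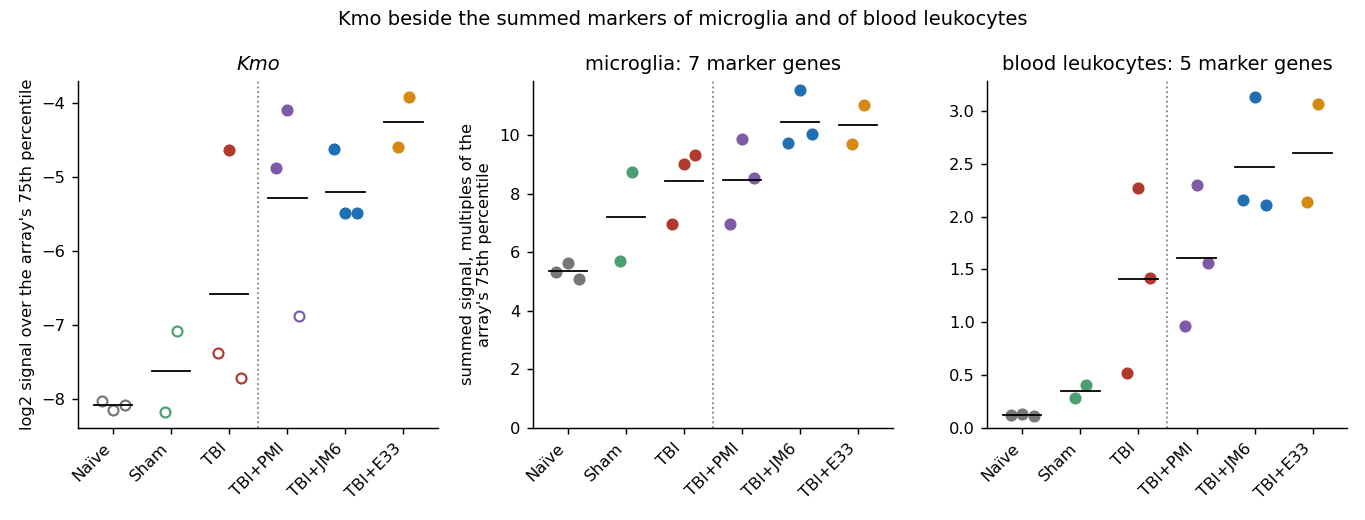
Left, Kmo log2 signal per array by group (filled: well above background, open: not). Middle and right, summed linear signal of 7 microglia and 5 blood leukocyte markers per array in multiples of the array's 75th percentile, with black lines for group means and a dotted line between scanning sessions: the second TBI rat is the high one of its group for both Kmo (-4.63) and the leukocyte markers (2.28).

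The second question was whether the drug groups differed from untreated injury. On the main scale Ido1 was the member called with all 3 drugs. Its fitted log2 difference from TBI was 2.76 ± 0.58 (SE, limma adjusted p = 0.00126) with JM6, 2.81 ± 0.58 (SE, adjusted p = 0.00155) with PMI-006 and 3.23 ± 0.65 (SE, adjusted p = 0.000984) with E33, and each drug group lay above all TBI rats. Since no TBI array measured Ido1 above background, the differences themselves are bounded only as at least 1.58-fold, 1.65-fold and 2.20-fold. Only 2 of 3 TBI+JM6 and 2 of 3 TBI+PMI arrays were above background, so the first 2 bounds also rest on a dim value. With JM6 and with PMI-006 Ido1 was the 1 member called of 5, while 70.1% of all tested probes were called with JM6 (69.9% higher) and 56.7% with PMI-006 (56.7% higher). With E33, Ido1, Haao and Kmo were called, 3 of 5 members, against 70.3% of all probes (70.2% higher). A count of members called at or under that background is no result about the pathway. The 3 comparisons share their TBI rats, and the session cannot be told apart from the drug in any of them. Ido1, Haao and Kmo entered the test through TBI+E33, and Kmo also through TBI+JM6. Their p-values against TBI in those groups, also with arrays left out, start from the group that selected them and support nothing.

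Kmo differed from TBI by 1.37 ± 0.77 (SE, limma adjusted p = 0.125) with JM6, by 1.29 ± 0.77 (SE, adjusted p = 0.165) with PMI-006 and by 2.32 ± 0.86 (SE, adjusted p = 0.0292) with E33. Less the median of all probes in the same comparison, the Kmo differences came to 0.38, 0.50 and 1.25. The second TBI rat was the only one of its group with Kmo above background. Without that rat, Kmo passed with JM6 (2.35, limma adjusted p = 0.00669) and with PMI-006 (2.26, adjusted p = 0.0106). Leaving out the highest TBI value raises these differences whatever the drug did, so these passes support nothing. The Kmo call with E33 was lost when either other TBI rat was left out. Leaving out an E33 rat leaves 1 in that group, so no call is given there. Under quantile normalization no Kmo difference passed and the direction turned for JM6 (-0.61) and PMI-006 (-0.25), while E33 gave 0.17. Haao was higher than in TBI by 1.86 ± 0.45 (SE, adjusted p = 0.00289) with E33, and the Haao difference was 0.20 ± 0.40 with JM6 and 0.14 ± 0.40 with PMI-006 (SE, adjusted p = 0.658 and 0.777). The Haao call with E33 rested on the second E33 rat, without which the difference was 0.99 (adjusted p = 0.0681).

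Other scalings moved all of these differences. Under quantile normalization the Ido1 difference was 1.30 with JM6 (adjusted p = 0.145), 1.49 with PMI-006 (adjusted p = 0.115) and 1.34 with E33 (adjusted p = 0.196), the same direction but no call. With normexp background correction it was 0.93 with JM6 (limma adjusted p = 0.304), and the sign turned with PMI-006 (-0.0301). The normexp medians of all tested probes in these 2 comparisons were 0.82 and 0.24. Haao under quantile normalization was lower than in TBI with JM6 (-1.74, adjusted p = 0.0076) and PMI-006 (-1.51, adjusted p = 0.0198). Aadat differed from TBI by -0.32 ± 0.21 with JM6, -0.14 ± 0.21 with PMI-006 and 0.17 ± 0.24 with E33 on the main scale (SE, adjusted p = 0.186, 0.566 and 0.511). Less the shift of the median probe these Aadat differences were -1.31, -0.93 and -0.90. Under quantile normalization Aadat was called lower with all 3 drugs, with differences of -1.19 (adjusted p = 0.00162), -0.83 (adjusted p = 0.0131) and -0.71 (adjusted p = 0.0367). On that scale 13.3%, 9.20% and 9.98% of all tested probes were called lower with JM6, PMI-006 and E33, and 13.9%, 9.96% and 10.4% higher. Qprt differed from TBI by 0.45 ± 0.33 with JM6, 0.40 ± 0.33 with PMI-006 and 0.63 ± 0.37 with E33 (SE, adjusted p = 0.242, 0.313 and 0.141). Under quantile normalization the sign of all 3 Qprt differences turned, to -0.61, -0.46 and -0.51, and none passed (adjusted p = 0.142, 0.281 and 0.290). With normexp background correction no Aadat difference passed, and that with JM6 was 0.04. Of the mean differences between sessions over all tested probes, that of Aadat (0.06) stood at percentile 6.93, that of Qprt (0.39) at 20.9, that of Haao (1.07) at 53.7, that of Kmo (2.41) at 86.0 and that of Ido1 (2.76) at 91.0.

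**Figure D3:**
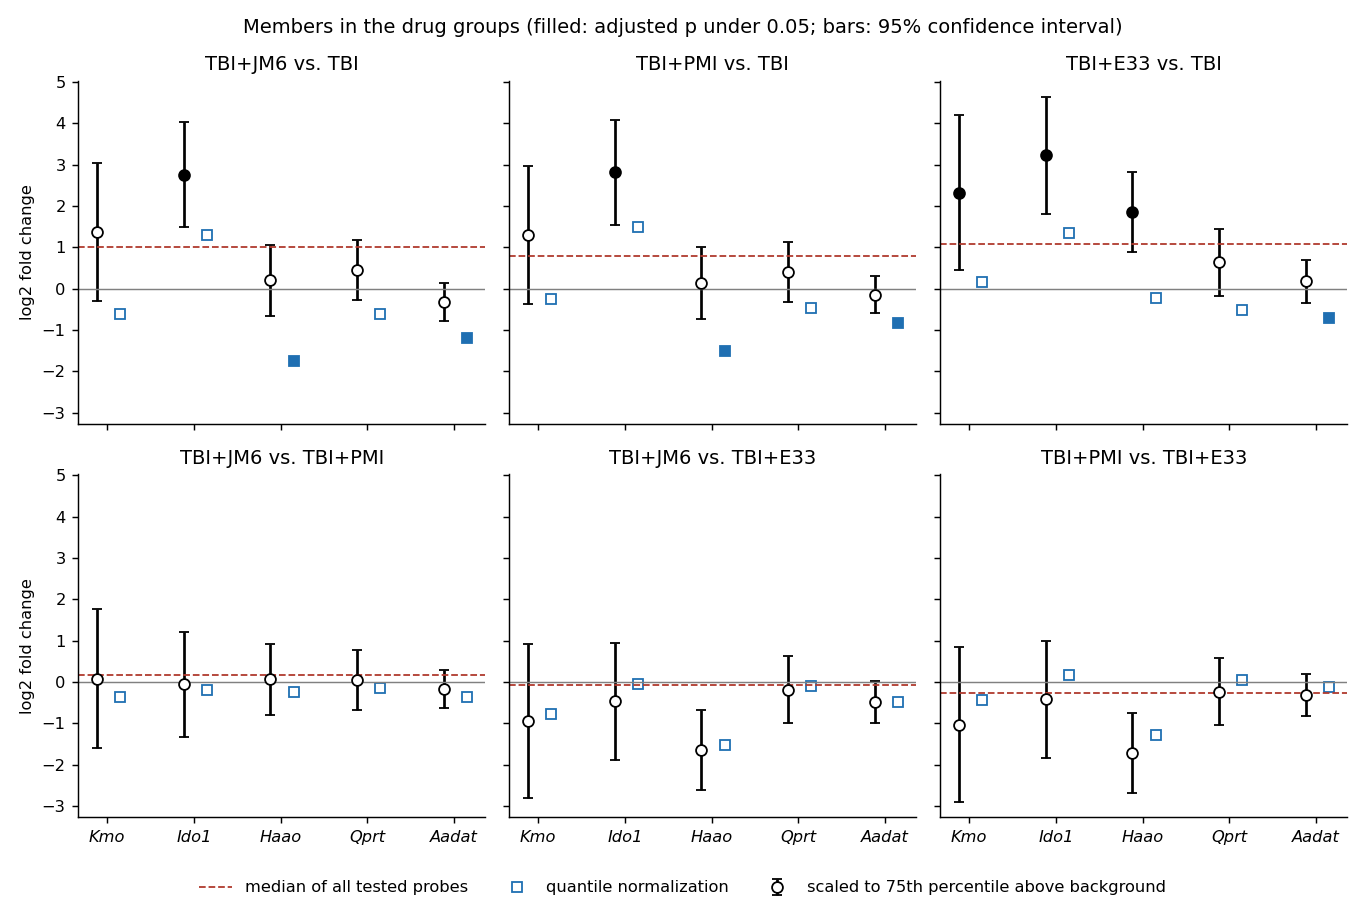
Log2 fold change (y axis) of the 5 tested members in 3 comparisons of a drug group with TBI (top) and 3 between drug groups (bottom). Black circles with 95% confidence intervals are on the main scale, blue squares after quantile normalization, filled symbols have an adjusted p under 0.05, and the dashed line is the median of all tested probes: in the top row Ido1 lies furthest above that line on the main scale and Aadat below it, while no symbol is filled in the bottom row.

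The third question was whether JM6, the drug aimed at Kmo, left the pathway in another state than the other 2 drugs did. All 3 drug groups were scanned in session 2, so the session does not enter here. No member was called in TBI+JM6 vs. TBI+PMI (0 of 5, unadjusted p under 0.05 in 0), TBI+JM6 vs. TBI+E33 (0 of 5, unadjusted in 1) or TBI+PMI vs. TBI+E33 (0 of 5, unadjusted in 1) by limma, against 0.0131%, 0.0175% and 0.110% of all tested probes. The methods' t-test passed only Aadat in TBI+JM6 vs. TBI+E33, before adjustment. Kmo differed between TBI+JM6 and TBI+PMI by 0.08 ± 0.77 (SE, 95% confidence interval -1.59 to 1.75, limma adjusted p = 0.982). Kmo in TBI+JM6 vs. TBI+E33 gave -0.95 ± 0.86 (SE, interval -2.82 to 0.92, adjusted p = 1), with both E33 rats above all 3 JM6 rats. The share of all probes whose groups separated in this way was not counted, so such a separation is not read as a result, here or for other genes. The intervals leave room for differences of over 2-fold either way for the first pair. On the slide that TBI+JM6 and TBI+PMI share, 1 JM6 array exceeded the mean of 3 PMI-006 arrays by 0.66 for Kmo, and on the slide shared with E33 the Kmo difference of 2 against 2 arrays was -1.24.

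Ido1 in TBI+JM6 differed from TBI+PMI by -0.06 ± 0.58 (SE, interval -1.33 to 1.21, limma adjusted p = 0.983) and from TBI+E33 by -0.47 ± 0.65 (SE, interval -1.89 to 0.94, adjusted p = 1), with overlapping groups in both. Haao gave 0.06 ± 0.40 (SE, interval -0.80 to 0.93, adjusted p = 0.974) against TBI+PMI. Against TBI+E33, the Haao difference was -1.66 ± 0.45 in TBI+JM6 (SE, interval -2.62 to -0.69, unadjusted p = 0.00269 and adjusted p = 1 by limma) and -1.72 ± 0.45 in TBI+PMI (SE, unadjusted p = 0.00206 and adjusted p = 0.138). In both, the E33 rats were above every rat of the other drug, and neither passed the adjustment over all probes. Haao had entered the test only because TBI+E33 measured it on all its arrays, so these 2 comparisons start from the group through which it was selected, and their unadjusted p-values support nothing. Without the second E33 rat the Haao differences were -0.79 and -0.86. Qprt differed by 0.04 ± 0.33 (SE, adjusted p = 0.979) from TBI+PMI and by -0.19 ± 0.37 (SE, adjusted p = 1) from TBI+E33. Aadat differed by -0.18 ± 0.21 (SE, interval -0.63 to 0.28, adjusted p = 0.845) from TBI+PMI and by -0.49 ± 0.24 (SE, unadjusted p = 0.0579, adjusted p = 1) from TBI+E33, where all 3 JM6 rats lay below both E33 rats. In TBI+PMI vs. TBI+E33 the other members gave -1.03 ± 0.86 (Kmo), -0.41 ± 0.65 (Ido1), -0.23 ± 0.37 (Qprt) and -0.32 ± 0.24 (Aadat), with overlapping groups (SE, lowest limma adjusted p = 0.576). Under quantile normalization the sign turned for Ido1 (0.16) and Qprt (0.0422).

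The other genes that handle tryptophan and kynurenine were read from 7 lists, and 28 of their 33 genes were tested, Aadat among them. In TBI vs. Sham, 1 of the 28 was called higher and 4 lower, and in TBI vs. Naïve 1 was higher and 1 lower. Of all tested probes, 2.92% were called higher and 6.46% lower in TBI vs. Sham, and 2.98% higher and 1.73% lower in TBI vs. Naïve. None of the 28 passed in either comparison with normexp background correction, which called 4 and 40 of all probes. Of the 4 kynurenine aminotransferases, 2 were called lower in TBI vs. Sham, where slide and group cannot be told apart. Kyat1 (kynurenine aminotransferase I) read -1.16, -1.56 and -1.51 in TBI against -0.70 and -0.69 in Sham rats, a change of -0.71 ± 0.18 (SE, limma adjusted p = 0.029). Kyat3 read -2.37, -1.96 and -2.13 against -1.50 and -1.46, a change of -0.68 ± 0.19 (SE, adjusted p = 0.0458). Neither passed in TBI vs. Naïve, where Kyat1 gave -0.28 and Kyat3 -0.43. Kyat3 was not called in TBI vs. Sham under quantile normalization (adjusted p = 0.104).

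Of the 5 tested receptor genes for kynurenine metabolites, 2 were called lower in TBI vs. Sham, both NMDA receptor subunits. Grin1 read -3.09, -3.94 and -4.17 in TBI and -2.99 and -2.46 in Sham rats, a change of -1.01 ± 0.28 (SE, limma adjusted p = 0.0406; 0.0564 under quantile normalization). Grin2b read -6.58, -7.35 and -6.43 in TBI, none above background, and -5.03 and -4.56 in Sham rats. Grin2b was at least 2.26-fold lower in TBI than in Sham (adjusted p = 0.00818) and at least 1.27-fold lower than in Naïve (adjusted p = 0.0469; 0.106 under quantile normalization). With normexp background correction the sign of the Grin2b differences turned (0.04 and 0.30). The medians of all tested probes were then 0.27 in TBI vs. Sham and 0.31 in TBI vs. Naïve, so Grin2b was not above the median probe. Sham rats were themselves higher than Naïve rats for Grin1 (1.19 ± 0.28, SE, adjusted p = 0.0224). Some neuron markers moved in TBI vs. Sham: 2 of 5 general and 1 of 5 hippocampal ones were called lower, with medians of -0.74 and -0.59. Of all tested probes, 6.46% were called lower there. Under quantile normalization these counts were 0 of 5 and 1 of 5. In TBI vs. Naïve they were 0 of 5 and 1 of 5 on the main scale, beside 1.73% of all tested probes. The summed signal of the 5 general markers was 11.8 to 18.7 in TBI, 22.7 to 23.6 in Sham and 17.1 to 18.5 in Naïve rats. Their part in the Grin1 and Grin2b differences was not tested.

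Among the inducers of Ido1 or Tdo2, 1 of 5 tested genes was called higher in both TBI vs. Sham and TBI vs. Naïve. Tnf, the cytokine tumour necrosis factor, read -3.52, -3.38 and -3.64 in TBI rats, against -5.23, -5.78 and -7.53 in Naïve and -6.66 and -5.27 in Sham rats. The Tnf change was 2.45 ± 0.56 (SE, limma adjusted p = 0.0206) over Sham and 2.67 ± 0.50 (SE, adjusted p = 0.0135) over Naïve. Tnf was above background on all 3 TBI arrays but on only 1 of 3 Naïve and 1 of 2 Sham arrays. The sizes of these changes therefore rest in part on values under background. Il1b, the cytokine interleukin-1 beta, was not above background in any of the 5 uninjured rats and read -7.52, -3.56 and -4.59 in TBI rats (adjusted p = 0.0702 and 0.0831 against Sham and Naïve). Ifng, the classical inducer of Ido1, was above background on none of the 16 arrays. The 3 tested serotonin branch genes, 7 NAD synthesis genes and 3 transporters had no call in TBI vs. Sham or TBI vs. Naïve.

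Between the drug groups 0 of the 28 genes passed by limma in any of the 3 comparisons, with an unadjusted p under 0.05 in 4 (TBI+JM6 vs. TBI+PMI), 0 (TBI+JM6 vs. TBI+E33) and 4 (TBI+PMI vs. TBI+E33). The largest difference between TBI+JM6 and TBI+PMI among them was that of Ido2, the paralog of Ido1. It read -4.08, -3.21 and -5.38 in TBI+JM6 rats, all above background, and -6.54, -6.08 and -5.49 in TBI+PMI rats, none above background. The bound was a difference of at least 3.12-fold, with the higher level in TBI+JM6 (limma adjusted p = 0.327). In the TBI+E33 rats Ido2 read -3.70 and -3.93. In the comparisons with TBI, which cross the sessions, 18 of 28 genes were called higher with JM6, 11 with PMI-006 and 19 with E33, with none lower, beside 69.9%, 56.7% and 70.2% of all tested probes, so that the genes of the lists were called no more often than probes at large. Under quantile normalization those counts were 3 higher and 4 lower, 2 and 2, and 1 and 3, beside 13.9% and 13.3%, 9.96% and 9.20%, and 10.4% and 9.98% of all probes.

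**Figure D4:**
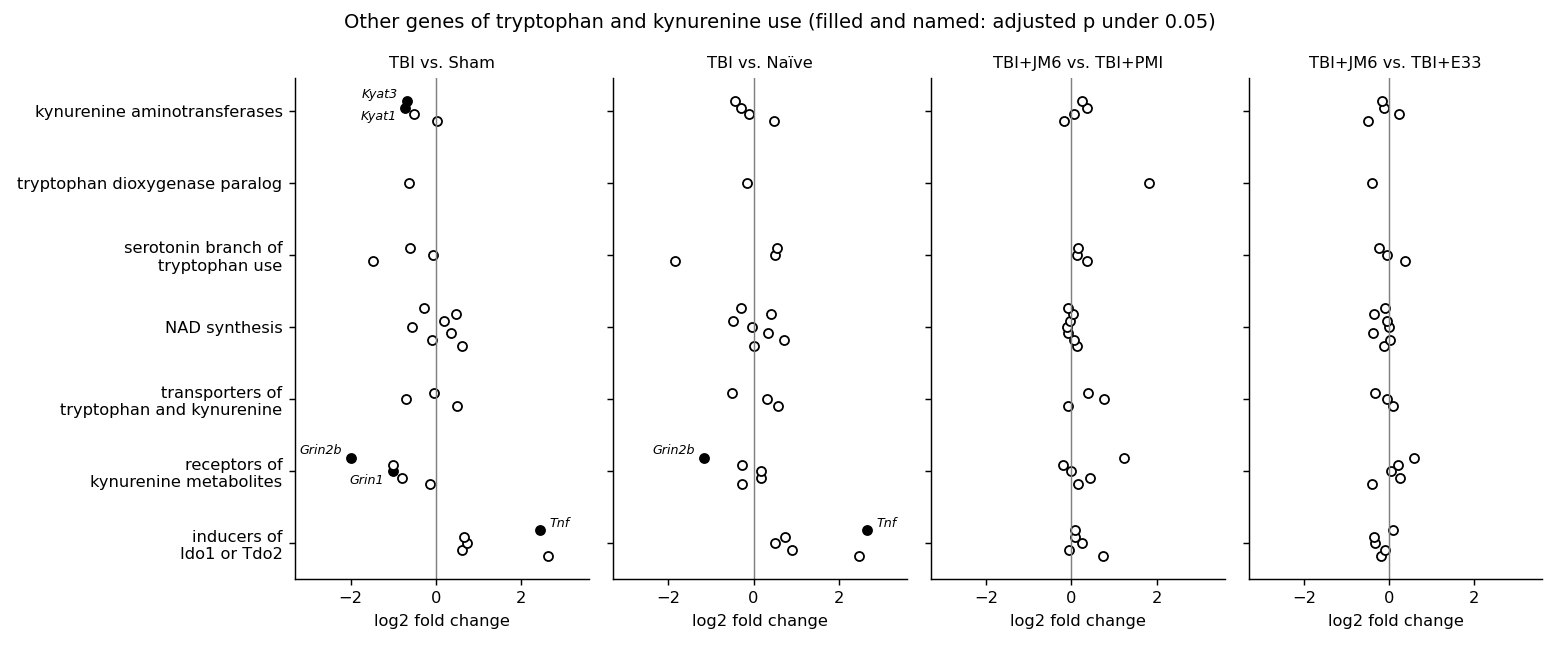
Log2 fold change (x axis) of the tested genes of 7 lists around tryptophan and kynurenine (rows) in 2 injury comparisons and 2 comparisons of JM6 with the other drugs. Each point is 1 gene, filled and named at an adjusted p under 0.05: Grin2b and Tnf are filled in both injury panels, and no point is filled in the JM6 panels.

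For the members measured on every array, the genes with the most similar pattern were looked up among 14289 probes detected on all 16 arrays, by Pearson's r of log2 signals after each session's mean was subtracted. Nearest to Qprt were RGD1310324, now Zswim7 (r = 0.89), Olfml2a (r = 0.89) and Tm4sf1 (r = 0.88). Nearest to Aadat were Suv39h1 (r = 0.82), Mid1ip1 (r = 0.80) and Dbt (r = 0.79). Qprt and Aadat themselves had an r of -0.13. These values order genes over 16 arrays that also share slides and group means, and are given as a description.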

How the data were processed

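RNA of whole hippocampus was labelled and hybridised to single-colour Agilent rat arrays. The authors scanned them and ran Agilent Feature Extraction 9.5.3.1, and the deposited scanner files hold intensity values per spot, background-subtracted by that software, with a flag for spots well above background. A deposited value table holds the authors' normalized ratio values, of which the log2 was used only as an alternative. The genome build of the annotation is rn4, per the file headers.

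Here spots flagged as outliers were left out (341 to 1113 of 42877 spots per array), spots of a probe were averaged, and log2 of intensity over the array's 75th percentile of probes well above background was used, after the study's methods. Of 30367 probes, 22821 were well above background on all arrays of at least 1 group. They were fitted over all 16 arrays and 6 groups with limma 3.58.1 in R 4.3.3 (10 residual degrees of freedom), with Benjamini-Hochberg adjustment and a threshold of 0.05. limma was tested on simulated data. The number of arrays limits the precision. Where a group had no array above background, a bound was set at each array's dimmest detected signal (15.8 to 39.4 intensity units). The mean of the other group kept its arrays that were not above background, so a bound is less certain where there were any. Of several probes of a listed gene the brightest tested one was used. The limma p-values set a difference against the spread between rats within groups, pooled over the 6 groups and drawn towards that of other probes. They take no account of a session or slide that the arrays of a group share.

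Alternatives were normexp background correction (offset 50), the 75th percentile of every probe instead of the detected ones, quantile normalization, no filter, the authors' value table, slide as a block, each session alone, the replicate number as a block, gene means over probes, leaving out each array, and the methods' t-test, with its thresholds of p 0.05 and fold 1.2 and with adjustment. Bounds written as a fold, and the fold threshold of 1.2, are ratios on the linear scale. Differences and changes between groups are on the log2 scale. The replicate numbers of different groups name different rats, and deviations of same-numbered arrays correlated between -0.19 and 0.18, so they were not taken as pairs. The text names the 9 members, the pathway genes of 7 lists and the 3 genes most like each fully detected member. The members and lists were chosen with earlier results of these data known.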

Additional observations from a re-analysis of the deposited data

How the results depend on the processing

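In the 6 comparisons within a session, no member was called on the main scale, and this also held in TBI vs. Sham, Sham vs. Naïve and TBI+JM6 vs. TBI+PMI under every alternative run. The exceptions were 1 member in TBI vs. Naïve and 1 in TBI+JM6 vs. TBI+E33 by the methods' unadjusted t-test, and 1 in TBI+PMI vs. TBI+E33 (Haao) with slide as a random block. Against TBI, 1, 1 and 3 members were called with JM6, PMI-006 and E33. These counts became 0, 0 and 0 under normexp, 2, 2 and 1 under quantile normalization and 2, 2 and 1 in the authors' value table. They became 2 and 2 (JM6 and PMI-006) with the 75th percentile over all probes, and 1 for E33 by the methods' t-test, adjusted or not. The genes called changed too. Under quantile normalization they were Haao and Aadat with JM6 and PMI-006, and Aadat with E33, all lower, while Ido1 was not called. Leaving out 1 array at a time gave 1 to 2 calls for JM6, 1 to 2 for PMI-006, 1 to 4 for E33 and 0 to 1 for TBI+PMI vs. TBI+E33. TBI replicate 2 (2, 2 and 4 without it), TBI replicates 1 and 3 and TBI+E33 replicate 1 (2 for E33 without each), TBI+PMI replicate 3 (2 for PMI-006), TBI+E33 replicate 2 (1 for E33) and TBI+E33 replicate 1 (1 for TBI+PMI vs. TBI+E33) moved them. The replicate number as a block left every count as it was (1, 1 and 3 against TBI) and changed no other call. The cause of these moves was not tested.

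Of all tested probes, 15958 were higher and 40 lower with JM6, 12934 and 11 with PMI-006 and 16026 and 21 with E33, against 3161 and 3042, 2274 and 2100, and 2375 and 2278 under quantile normalization. Among the differences given above, signs turned as follows (log2 fold changes). With quantile normalization, TBI+JM6 vs. TBI gave -0.61 for Kmo and -1.74 for Haao, TBI+PMI vs. TBI -0.25 and -1.51, TBI+E33 vs. TBI -0.22 for Haao and -0.71 for Aadat, and TBI+JM6 vs. TBI+PMI -0.35 for Kmo, -0.24 for Haao and -0.14 for Qprt. Qprt gave -0.61, -0.46 and -0.51 against TBI with JM6, PMI-006 and E33, and TBI+PMI vs. TBI+E33 gave 0.16 for Ido1 and 0.0422 for Qprt. In the authors' table these 14 were -0.55, -1.86, -0.16, -1.47, -0.28, -0.68, -0.38, -0.39, -0.16, -0.60, -0.44, -0.50, 0.18 and 0.0640, and Ido1 in TBI+JM6 vs. TBI+E33 was 0.0692. With the 75th percentile over all probes, Haao was -0.59 with JM6 and -0.51 with PMI-006 against TBI, Aadat with E33 was -0.66, Qprt was -0.34, -0.24 and -0.20 with JM6, PMI-006 and E33, and TBI+JM6 vs. TBI+PMI gave -0.0607 for Kmo, -0.0804 for Haao and -0.10 for Qprt. Under normexp, TBI+PMI vs. TBI gave -0.00988 for Kmo, -0.0301 for Ido1 and -0.32 for Haao, TBI+JM6 vs. TBI gave 0.0413 for Aadat, TBI+JM6 vs. TBI+E33 gave 0.0628 for Haao, 0.27 for Qprt, 0.47 for Ido1 and 0.50 for Kmo, and TBI+JM6 vs. TBI+PMI gave 0.31 for Aadat and 0.96 for Ido1. Normexp also moved the median of all tested probes, to 0.24 in TBI+PMI vs. TBI and 0.82 in TBI+JM6 vs. TBI. That median was 0.26 in TBI+JM6 vs. TBI+E33 and 0.53 in TBI+JM6 vs. TBI+PMI. With slide as a fixed block TBI+JM6 vs. TBI+PMI gave -0.13 for Qprt, -0.17 for Haao and 0.0271 for Ido1. Without single arrays, TBI+JM6 vs. TBI+PMI ran from -0.71 to 0.68 for Kmo, -0.63 to 0.56 for Ido1, -0.17 to 0.33 for Haao, -0.10 to 0.31 for Qprt and -0.37 to 0.0108 for Aadat, Ido1 in TBI+JM6 vs. TBI+E33 from -1.04 to 0.14, Haao against TBI from -0.0421 to 0.43 with JM6 and -0.13 to 0.37 with PMI-006, and Aadat with PMI-006 from -0.33 to 0.0545.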
